A study of Mus musculus with 20 samples.

Results

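The expression of 10 genes of the endoplasmic reticulum (ER) stress response and the integrated stress response was followed in 20 bulk RNA-seq libraries of mouse liver. The genes were chosen by name in the deposited table of counts per gene, which lists 55421 identifiers, of which 22867 had enough counts to be tested. They were Hspa5, Xbp1, Herpud1 and Dnajb9 on the side of protein folding, and Atf4, Ddit3, Atf3, Trib3, Asns and Fgf21 on the side of the integrated stress response. All 10 were tested. A second identifier that also carries the name Ddit3 had 0 counts in all 20 libraries and was not tested.

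The livers came from wildtype C57BL/6 mice, labelled female (the study's text names this time course once as male and elsewhere as female), that received at 6 months of age a retro-orbital injection of an AAV8 virus. The virus encodes the Cas9 of Staphylococcus aureus under Tbg, a promoter active in hepatocytes, and a guide RNA under U6, which was directed either against Hira, the histone chaperone that deposits H3.3 outside of replication, or against Rosa26, the control site. The 4 groups of 5 livers each were collected 3 weeks or 6 months later. Cas9 is restricted to hepatocytes by its promoter, whereas the RNA was taken from whole liver, so the other liver cells and any unedited hepatocytes contributed to every value. In such bulk samples, fewer cells of a type and less RNA per cell cannot be told apart.

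When unfolded proteins accumulate in the ER, 3 sensors in its membrane start the unfolded protein response: IRE1 splices the Xbp1 transcript, ATF6 is cleaved into a transcription factor, and PERK phosphorylates the initiation factor eIF2alpha. Phosphorylation of eIF2alpha, by PERK or by kinases that sense amino acid shortage, haem or viral RNA, is the shared step of the integrated stress response, which lowers translation in general while ATF4 is translated more. In the liver, a secretory organ, the chaperones of the ER are abundant in the resting state, and FGF21 is a hormone released in fasting and in stress.

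The promoters of 5 of these genes hold sequences that are known to bind the transcription factors of both responses, and they are shown here because these sequences belong to the known regulation of both branches. RefSeq promoters (GRCm38.p6) were found for all 10 genes, and the 250 bases before each transcript start were searched on both strands for the ER stress elements ERSE (CCAAT and CCACG with 9 bases between them) and ERSE-II (ATTGG and CCACG with 1 base between them), the unfolded protein response element TGACGTGG, the C/EBP-ATF response element CARE (TTNCATCA) and the cyclic AMP response element TGACGTCA, whose first 6 letters are also those of TGACGTGG. Each sequence is written from 5′ to 3′ along the strand of the gene, with the match in capitals, and in Asns the match lies on the opposite strand.
Hspa5, ERSE, chr2:34772010-34772058, + strand: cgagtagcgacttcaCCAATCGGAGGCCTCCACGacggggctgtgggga
Herpud1, ERSE-II, chr8:94386362-94386402, + strand: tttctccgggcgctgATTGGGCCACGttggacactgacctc
Herpud1, CARE, chr8:94386302-94386339, + strand: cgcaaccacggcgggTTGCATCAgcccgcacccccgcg
Atf3, CARE, chr1:191183421-191183458, - strand: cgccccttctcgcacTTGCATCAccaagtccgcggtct
Asns, CARE, chr6:7693210-7693247, - strand: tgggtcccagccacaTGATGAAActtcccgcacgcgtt
Fgf21, CARE, chr7:45615607-45615644, - strand: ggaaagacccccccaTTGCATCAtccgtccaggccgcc

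ERSE was found in 1 of the 10 promoters and in 37 of all 32544 promoters searched (0.114%). ERSE-II was found in 1 of the 10 and in 10 of all (0.0307%). CARE was found in 4 of the 10 and in 1106 of all (3.40%). The letters TGACGTGG and TGACGTCA were in none of the 10, and in 185 (0.569%) and 506 (1.55%) of all promoters. The ERSE of Hspa5 lies 65 to 47 bases before the transcript start, the ERSE-II of Herpud1 52 to 42 bases before it, and its CARE 112 to 105. The CARE of Fgf21 lies 139 to 132 bases before the start, that of Atf3 110 to 103, and that of Asns 23 to 16. These starts are RefSeq's for 1 transcript of each gene, and they differ from the gene spans given below, which come from GENCODE and cover all transcripts, so the matches of Hspa5, Atf3 and Asns lie within those spans. Herpud1 held elements of both branches, and Xbp1, Dnajb9, Atf4, Ddit3 and Trib3 held none. A match describes letters only, since binding was not measured in these libraries.

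Total counts per library ranged from 19916430 to 24079736. Hira itself had 128, 171, 158, 134 and 136 counts in the Rosa26 libraries at 3 weeks against 126, 127, 90, 104 and 87 in the HIRA libraries, with a log2 fold change of -0.48 ± 0.14 (SE) and an edgeR adjusted p of 0.197. At 6 months its counts were 132, 157, 141, 131 and 105 against 136, 109, 136, 112 and 128, overlapping, for a difference of -0.10 ± 0.14 on the log2 scale (adjusted p = 0.794 in edgeR). The study reports from western blots that HIRA protein was lost with the HIRA guide, and transcript counts do not measure protein. Xist gave 9 counts and 4 Y-linked genes gave 2041 in the library labelled HIRA 6 months replicate 5, against 6286 to 8436 and at most 13 in the other 19, which goes against its label as female, so 6-month values of the genes and lists named below are also given after leaving it out where they moved. Hepatocyte markers (Alb, Apoa1, Apoe, Glul, Serpina1a and Ttr) summed to 96351 to 171566 CPM (counts divided by the library size, which puts all libraries on one scale) per library, against 175 to 1811 for 5 Kupffer cell markers, 135 to 568 for 5 stellate cell markers, 73.3 to 144 for 4 endothelial markers, 46.8 to 153 for 5 cholangiocyte markers, 10.2 to 57.2 for 7 lymphocyte markers and 1.88 to 39.7 for 4 neutrophil markers. Of these markers, Ly6g was at 0 in all 5 HIRA libraries at 3 weeks.

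Expressed per transcript length (FPKM, as deposited), the 10 genes spanned a wide range. Hspa5, the chaperone BiP, led with 273.8 ± 60.95 FPKM (SD, n = 20), followed by Herpud1 with 164 ± 41.3, Xbp1 with 90.6 ± 10.4 and Atf4 with 63.6 ± 7.83. Dnajb9 reached 22.7 ± 5.44 and Ddit3 10.8 ± 2.37 FPKM. The order of these levels held in all 20 libraries from Herpud1 down to Ddit3, and in 18 of 20 for Hspa5 over Herpud1. At the low end stood Fgf21 with 3.90 ± 3.71, Trib3 with 2.84 ± 1.04, Atf3 with 1.15 ± 0.714 and Asns with 0.191 ± 0.0940 FPKM. Fgf21 was above Trib3 in only 8 of 20 libraries, so these neighbours could not be ordered. Asparagine synthetase was thus close to the limit of detection in every liver, with 2 to 14 counts per library.

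**Figure D1:**
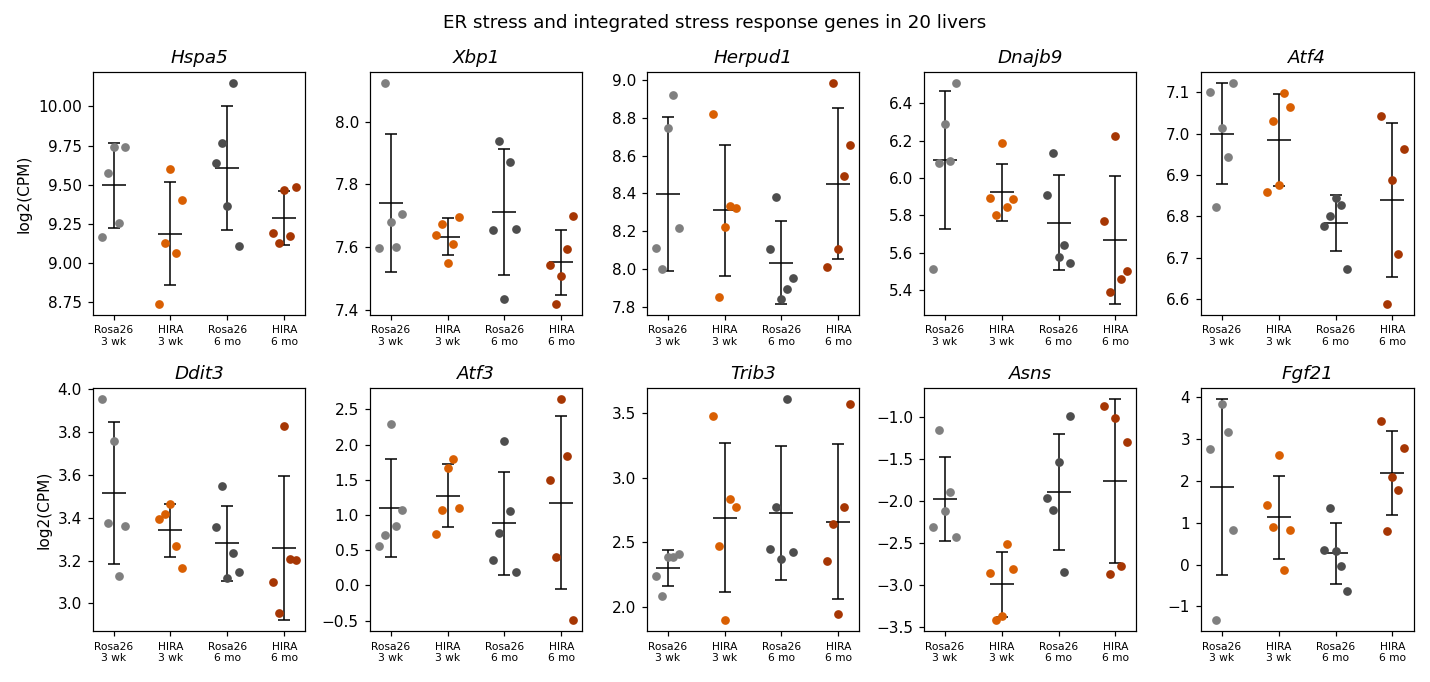
Level of each of the 10 genes in the 20 livers, as log2 of CPM scaled by TMM library size (vertical axis, with its own range per panel), by group. Points are libraries, in the order of replicates 1 to 5, and the horizontal line and bars are the mean ± SD (n = 5). Fgf21 spans the widest range, from 0.399 to 14.1 CPM, and Atf4 the narrowest, from 96.2 to 139 CPM. In Asns, all 5 HIRA livers at 3 weeks lie below the 5 Rosa26 livers of that time.

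None of the 10 genes passed the threshold (edgeR adjusted p under 0.05) between HIRA and Rosa26 livers at either time. At 3 weeks 0 of 10 passed against 0.197% of all 22867 genes tested, and at 6 months 0 of 10 against 1.31%. Without correction, 1 gene at 3 weeks (Asns) and 2 at 6 months (Herpud1 and Fgf21) had p under 0.05, where 8.87% and 15.5% of all genes did. DESeq2 and limma-voom also passed 0 of 10 at both times, as did edgeR when the library labelled HIRA 6 months replicate 5 was left out. For the 10 genes the median of the log2 fold changes was -0.16 at 3 weeks, with 8 below 0, and 0.03 at 6 months, with 4 below 0. Over all genes tested it was -0.01 and 0.03.

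The genes of protein folding come first. Hspa5 (chromosome 2, 34771970 to 34777547 in GRCm38) encodes the main Hsp70 chaperone of the ER, which also holds the 3 sensors inactive. Its level in Rosa26 replicates 1 to 5 was 574, 762, 857, 611 and 857 CPM at 3 weeks, and in HIRA replicates 427, 559, 775, 536 and 678 CPM. At 6 months it was 796, 871, 659, 1137 and 553 CPM with the Rosa26 guide and 585, 559, 708, 577 and 716 CPM with the HIRA guide. The mean of the HIRA livers was lower at both times, yet the groups overlapped. Hspa5 differed by a log2 fold change of -0.30 ± 0.18 (SE) at 3 weeks and -0.35 ± 0.18 at 6 months, with adjusted p of 0.694 and 0.349. With the library labelled HIRA 6 months replicate 5 left out, the later value was -0.40 (adjusted p = 0.272), and without Rosa26 6 months replicate 4 it was -0.19 (adjusted p = 0.719).

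Xbp1 (chromosome 11, 5520659 to 5525893, from another version of its identifier in the annotation) encodes the transcription factor made from the transcript that IRE1 splices, and gene counts do not separate spliced from unspliced transcripts. Rosa26 livers at 3 weeks had 193, 279, 205, 194 and 209 CPM and HIRA livers 199, 204, 187, 195 and 207 CPM. The 6-month levels were 202, 246, 173, 234 and 202 CPM in Rosa26 livers against 186, 171, 182, 193 and 208 CPM in HIRA livers. Apart from Rosa26 replicate 2 at 3 weeks, the libraries of that time lay within a narrow band. The differences were -0.12 ± 0.10 and -0.17 ± 0.10 on the log2 scale (adjusted p = 0.834 and 0.472), and Xbp1 differed by -0.01 at 3 weeks without Rosa26 replicate 2 and by -0.11 at 6 months without Rosa26 replicate 2 of that time.

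Herpud1 (chromosome 8, 94386438 to 94395377) encodes a membrane protein of ER-associated degradation, the route by which misfolded proteins leave the ER. It had 277, 256, 429, 484 and 297 CPM in Rosa26 livers at 3 weeks and 451, 231, 298, 322 and 320 CPM in HIRA livers. At 6 months the Rosa26 livers had 275, 333, 229, 238 and 247 CPM and the HIRA livers 258, 506, 276, 360 and 403 CPM. The 6-month groups overlapped only in part, with 3 of 5 HIRA livers above all Rosa26 livers. Its log2 fold change was -0.10 ± 0.20 at 3 weeks and 0.45 ± 0.20 at 6 months, and the latter had an unadjusted p of 0.0397 and an adjusted p of 0.292. It was 0.40 without the library labelled HIRA 6 months replicate 5 (adjusted p = 0.342) and 0.29 without HIRA 6 months replicate 2 (adjusted p = 0.525).

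Dnajb9 (chromosome 12, 44205559 to 44210326), a co-chaperone of BiP also called ERdj4, is a target of spliced XBP1. Levels at 3 weeks were 45.7, 67.5, 78.2, 68.2 and 91.0 CPM with the Rosa26 guide and 59.5, 55.8, 72.9, 57.5 and 59.2 CPM with the HIRA guide. At 6 months they were 60.2, 70.2, 47.8, 49.9 and 46.7 CPM against 54.5, 42.0, 74.8, 44.0 and 45.3 CPM. Both pairs of groups overlapped, and the log2 differences were -0.20 ± 0.17 and -0.08 ± 0.17 (adjusted p = 0.822 and 0.892). The 3-week value of Dnajb9 was -0.09 without Rosa26 replicate 5 and -0.32 without Rosa26 replicate 1.

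In the integrated stress response, Atf4 (chromosome 15, 80255184 to 80257541) encodes the central transcription factor, which is controlled mostly through translation. Its transcript level was the steadiest of the 10, with a ratio of 1.45 between the highest and the lowest library. Rosa26 livers had 137, 113, 129, 123 and 139 CPM and HIRA livers 116, 131, 117, 137 and 134 CPM at 3 weeks. At 6 months the values were 110, 111, 115, 114 and 102 CPM against 132, 96.2, 118, 105 and 125 CPM. The log2 fold changes were -0.02 ± 0.09 and 0.06 ± 0.09, with 95% intervals from -0.20 to 0.16 and from -0.12 to 0.24 (adjusted p = 0.985 and 0.795).

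Ddit3 (chromosome 10, 127290774 to 127296288), which encodes CHOP, the factor that links prolonged ER stress to cell death, was expressed at 7.74 to 15.5 CPM. At 3 weeks it had 15.5, 10.4, 13.5, 8.74 and 10.3 CPM in Rosa26 livers and 10.5, 10.7, 11.0, 9.63 and 8.97 CPM in HIRA livers. The 6-month livers had 10.2, 11.7, 8.69, 9.40 and 8.85 CPM against 8.57, 7.74, 14.2, 9.24 and 9.20 CPM. The arms overlapped throughout, with log2 differences of -0.20 ± 0.16 and 0.00 ± 0.16 (adjusted p = 0.806 and 1), and the 3-week value of Ddit3 was -0.08 without Rosa26 replicate 1. The gene overlaps Mars on the opposite strand, which carried 25766 counts in all against 4505 for Ddit3, and whether the counting used the strand is not stated, so the Ddit3 counts are uncertain.

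Atf3 (chromosome 1, 191170296 to 191218039) encodes a factor induced by many stresses, also in immune cells. Rosa26 livers at 3 weeks had 1.47, 1.65, 4.90, 1.80 and 2.09 CPM and HIRA livers 1.66, 2.11, 3.19, 3.46 and 2.15 CPM. At 6 months they had 1.28, 1.68, 4.13, 2.08 and 1.15 CPM against 2.82, 1.32, 6.26, 3.57 and 0.711 CPM. In each group replicate 3 or 4 was the highest, and the library labelled HIRA 6 months replicate 5 was the lowest of all 20. The groups overlapped at both times, with log2 fold changes of 0.07 ± 0.46 and 0.51 ± 0.46 (adjusted p = 0.989 and 0.656). The 6-month value of Atf3 was 0.03 without HIRA replicate 3 and 0.92 without Rosa26 replicate 3.

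Trib3 (chromosome 2, 152337422 to 152344032), a pseudokinase induced by ATF4 and CHOP that restrains insulin signaling, had 4.71, 4.24, 5.22, 5.23 and 5.30 CPM in Rosa26 livers and 11.2, 5.53, 3.73, 7.14 and 6.82 CPM in HIRA livers at 3 weeks. At 6 months it had 5.46, 6.85, 5.16, 12.2 and 5.37 CPM against 5.12, 6.24, 3.86, 6.85 and 11.9 CPM. At 3 weeks 4 of 5 HIRA livers were above all Rosa26 livers and the other one was below them. The log2 fold change was 0.48 ± 0.29 at 3 weeks and -0.05 ± 0.29 at 6 months (adjusted p = 0.715 and 0.959), and the 3-week value of Trib3 was 0.23 without HIRA replicate 1.

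Asns (chromosome 6, 7675169 to 7693254) encodes asparagine synthetase, a classical ATF4 target. Its counts at 3 weeks were 4, 9, 5, 6 and 4 in Rosa26 livers and 3, 2, 2, 4 and 3 in HIRA livers. As CPM, all 5 HIRA livers (0.0937 to 0.175) were below all 5 Rosa26 livers (0.186 to 0.449), the only one of the 10 genes whose groups did not overlap, where 2.69% of all genes tested did not. The log2 fold change was -1.01 ± 0.47 with an unadjusted p of 0.0421 and an adjusted p of 0.541. With other tools, filters and scalings it ran from -1.04 to -0.123. In the deposited FPKM the groups of Asns overlapped, with 0.116 to 0.378 in Rosa26 livers and 0.0441 to 0.156 in HIRA livers. At 6 months Asns had 6, 5, 8, 3 and 11 counts against 14, 3, 12, 3 and 8, and the difference was 0.25 ± 0.40 (adjusted p = 0.834), with a range when 1 library was left out from 0.0042 (HIRA replicate 1) to 0.52 (Rosa26 replicate 5). At such counts a library with 2 more or fewer reads changes the order.

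Fgf21 (chromosome 7, 45613886 to 45615490) showed the largest differences of the 10. In Rosa26 livers at 3 weeks it had 6.74, 0.399, 14.1, 9.02 and 1.77 CPM, and in HIRA livers 2.67, 1.87, 6.10, 0.919 and 1.76 CPM. At 6 months the Rosa26 livers had 1.28, 2.56, 1.25, 0.973 and 0.642 CPM and the HIRA livers 10.8, 1.73, 4.27, 3.42 and 6.91 CPM. Livers of one group thus differed by up to 35.4-fold at 3 weeks with the Rosa26 guide, while 4 of 5 HIRA livers at 6 months were above all Rosa26 livers of that time. The log2 fold change of Fgf21 was -1.27 ± 0.64 at 3 weeks (unadjusted p = 0.0599, adjusted p = 0.592) and 2.02 ± 0.67 at 6 months (unadjusted p = 0.00683, adjusted p = 0.142). The 3-week value was -0.75 without Rosa26 replicate 3. Its 6-month value was 1.92 without the library labelled HIRA 6 months replicate 5 (adjusted p = 0.157). With all libraries, the 2-sided exact permutation test on log2 CPM gave Fgf21 an unadjusted p of 0.460 at 3 weeks and 0.0159 at 6 months.

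For the other 7 genes, leaving out the library labelled HIRA 6 months replicate 5 gave 6-month log2 fold changes of -0.21 for Xbp1, -0.03 for Dnajb9, 0.03 for Atf4, 0.03 for Ddit3, 0.76 for Atf3, -0.35 for Trib3 and 0.20 for Asns. Trib3 and Atf3 moved most, and none of the 7 passed.

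**Figure D2:**
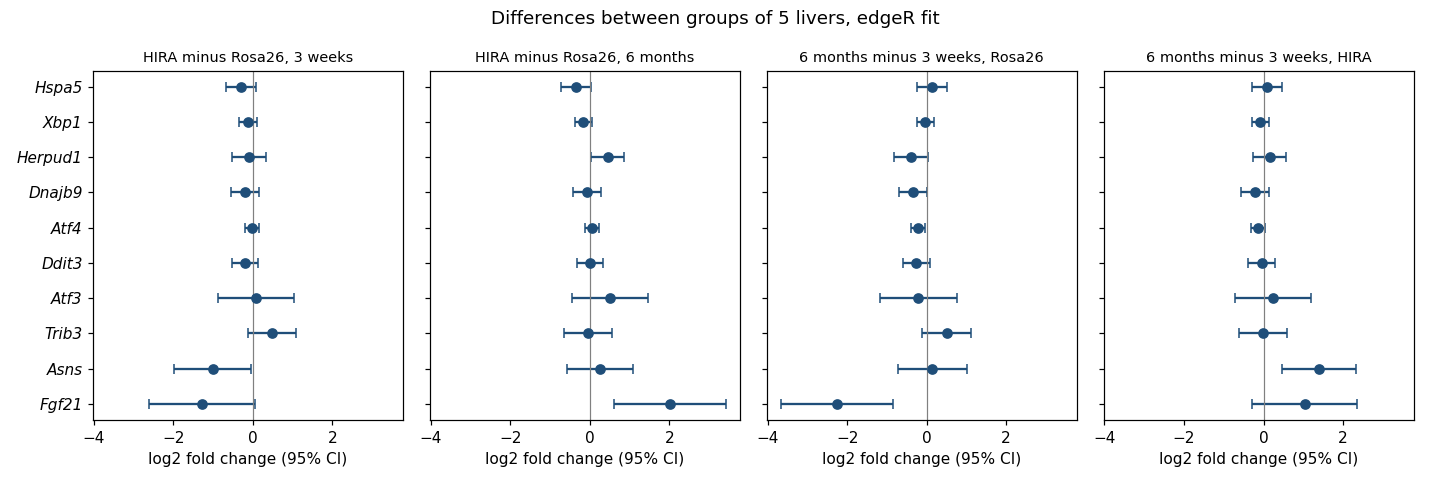
Log2 fold change (horizontal axis) of each of the 10 genes in 4 comparisons of 5 against 5 livers, from an edgeR fit of all 20 libraries. Points are estimates and bars their 95% confidence intervals without correction for the number of genes. The intervals of Fgf21 at 6 months (0.62 to 3.42) and over time in Rosa26 livers (-3.66 to -0.85) exclude 0 before correction, and none of the differences passed after it.

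Whether the effect of the guide changed with time was tested as the guide effect at 6 months minus that at 3 weeks. In edgeR 0 of 10 genes passed, as did 0% of all genes tested, and 1 gene (Fgf21) had an unadjusted p under 0.05, where 6.62% of all genes did. DESeq2 and limma-voom also passed 0 of the 10. For Fgf21 the 2 guide effects had opposite signs and differed by 3.29 ± 0.93 on the log2 scale, with a 95% interval from 1.36 to 5.22, an unadjusted p of 0.00192 and an adjusted p of 0.614. Asns (1.25 ± 0.61, adjusted p = 0.759) and Herpud1 (0.55 ± 0.29, adjusted p = 0.790) followed. With other tools, filters and scalings the Asns value ran from 0.0601 to 1.27. The other 7 genes differed by -0.52 (Trib3) to 0.44 (Atf3). When the library labelled HIRA 6 months replicate 5 was left out, the change of the guide effect was 3.19 for Fgf21 (edgeR unadjusted p = 0.00311), 1.204 for Asns, 0.51 for Herpud1, 0.68 for Atf3 and -0.82 for Trib3 (unadjusted p = 0.0392, adjusted p = 0.640), and without Rosa26 6 months replicate 4 it was -0.23 for Trib3.

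Between 3 weeks and 6 months, 0 of 10 genes passed in Rosa26 livers (0.324% of all genes did) and 0 of 10 in HIRA livers (0.0656%), by edgeR. Unadjusted p-values under 0.05 were found for 3 genes in Rosa26 livers and 1 in HIRA livers, against 12.8% and 8.95% of all genes. In Rosa26 livers Fgf21 differed by -2.26 ± 0.67 (adjusted p = 0.139), Atf4 by -0.22 ± 0.09 (adjusted p = 0.276) and Dnajb9 by -0.35 ± 0.17 (adjusted p = 0.390). DESeq2 called Fgf21 in this comparison, with a log2 fold change of -2.25 and an adjusted p of 0.0468, where DESeq2 called 511 of all genes against 74 in edgeR, and limma-voom passed none of the 10. The 2-sided exact permutation test on log2 CPM gave Fgf21 an unadjusted p of 0.143 over time in Rosa26 livers. In HIRA livers Asns differed by 1.40 ± 0.45 (adjusted p = 0.313), and both other tools passed 0 of 10. With other tools, filters and scalings this Asns value ran from 0.108 to 1.43. The groups overlapped for all 10 genes at 6 months and in both comparisons over time, where 3.15% of all genes did not overlap at 6 months, 3.5% over time in Rosa26 livers and 1.47% in HIRA livers. The comparisons share libraries: the Rosa26 livers at 3 weeks enter the 3-week, the interaction and the Rosa26 time values.

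The Rosa26 livers at 3 weeks also had the lowest mean of a circadian clock index. The index of 9 clock output genes minus 5 genes of the positive limb, as mean centred log2 CPM, was -1.95 ± 0.36 (SD, n = 5) there, against 0.77 ± 1.28 in HIRA livers at 3 weeks, 0.40 ± 0.92 in Rosa26 livers at 6 months and 0.78 ± 1.64 in HIRA livers at 6 months. The 5 Rosa26 libraries at 3 weeks ran from -2.44 to -1.503, below all HIRA libraries of that time and all Rosa26 libraries at 6 months, but HIRA 6 months replicate 1, the 6-month library with the most Fgf21, lay among them at -1.67. At 3 weeks 5 of the 9 output genes rose in the HIRA livers (edgeR adjusted p under 0.05), where 0.197% of all genes passed. The number of all genes that passed at 3 weeks went from 45 to 4 without HIRA 3 weeks replicate 4. Within groups (20 libraries, group means removed), Trib3 had a median r of 0.43 with the 9 output genes, all above 0, and of -0.43 with the 5 positive-limb genes, all below 0. The corresponding values were -0.33 and 0.27 for Fgf21, -0.32 and 0.21 for Asns, 0.30 and -0.09 for Herpud1, -0.23 and 0.32 for Dnajb9, and -0.22 and 0.18 for Ddit3. For Hspa5, Xbp1, Atf4 and Atf3 they lay between -0.21 and 0.15. The part of the clock difference in the values of the 10 genes was not tested.

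Beyond the 10 genes, 97 genes in 6 lists cover the sensors, chaperones, degradation factors, eIF2alpha kinases and ATF4 or CHOP targets. At 3 weeks 0 of 97 passed in edgeR, 19 had an unadjusted p under 0.05 (19.6%, against 8.87% of all genes), DESeq2 passed 1 (Ppib; 228 of all genes) and limma-voom 0 (23 of all genes). At 6 months 1 of 97 passed in edgeR (Bbc3), where 1.31% of all genes did, 1 in limma-voom (Bbc3; 297 of all genes) and 3 in DESeq2 (Bbc3, Edem1 and Ppib; 895 of all genes), so the count in the lists was near that over all genes, and 15 had an unadjusted p under 0.05 (15.5%, against 15.5% of all genes).

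The ER chaperones and folding enzymes lay below 0 nearly as a group at 3 weeks, although none passed in edgeR. Of 18, 17 had a log2 fold change below 0, and the median was -0.32 against -0.01 for all genes tested. Ppib, a prolyl isomerase of the ER, had 162, 217, 129, 120 and 133 CPM in Rosa26 livers and 103, 107, 104, 105 and 104 CPM in HIRA livers. All HIRA livers were below all Rosa26 livers, and Ppib differed by -0.54 ± 0.14 (adjusted p = 0.128 in edgeR and 0.0255 in DESeq2). Sdf2l1, a partner of BiP, had 31.8, 64.4, 29.2, 21.1 and 31.7 CPM against 13.2, 16.1, 23.95, 16.2 and 18.6 CPM, a difference of -1.02 ± 0.31 (adjusted p = 0.224). Rosa26 replicate 2, the library in which Xbp1 was highest, was also the highest of its group for Ppib and Sdf2l1. Without that library Ppib differed by -0.38 and Sdf2l1 by -0.69. Over all single libraries left out, their edgeR adjusted p reached 0.392 and 0.615. Without Rosa26 replicate 2, 17 of the 18 genes were below 0 with a median of -0.26. Of the 18, the number with an unadjusted p under 0.05 went from 8 to 2, while the share of all genes went from 8.87% to 6.88%. With all libraries at 3 weeks, 4 of 4 neutrophil markers were below 0, all with an unadjusted p under 0.05 (median -1.89). Their summed CPM was 2.47 to 39.7 in Rosa26 livers (median 4.15) and 2.00 to 4.65 in HIRA livers (median 3.15). Of 6 hepatocyte markers 5 were below 0, 3 of them with an unadjusted p under 0.05 (median -0.20), where 8.87% of all genes had such a p. All 7 of 7 lymphocyte markers were above 0 (median 0.43). The part of these markers in the chaperone values was not tested.

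At 6 months 15 of these 18 genes were below 0, with a median of -0.14 against 0.03 for all genes, and 1 had an unadjusted p under 0.05, as did 15.5% of all genes. All 5 stellate cell markers (median 0.51), all 4 endothelial markers (median 0.33) and all 7 lymphocyte markers (median 0.32) were above 0 in this comparison, and their part was not tested. Ppib had 127, 159, 112, 175 and 121 CPM in Rosa26 livers and 103, 91.2, 92.8, 97.3 and 113 CPM in HIRA livers, with a log2 fold change of -0.48 ± 0.14 (adjusted p = 0.0891 in edgeR and 0.0208 in DESeq2). Ppib passed in edgeR at 6 months when Rosa26 3 weeks replicate 2 was left out (-0.48, adjusted p = 0.0356), a library that enters this comparison through the shared estimate of the spread. Without Rosa26 6 months replicate 4 Ppib differed by -0.38. Over all single libraries left out, its edgeR adjusted p reached 0.257. When the library labelled HIRA 6 months replicate 5 was left out, 17 of 18 were below 0, the median was -0.25 and 5 had an unadjusted p under 0.05, as had 17.7% of all genes in that fit, and Ppib differed by -0.53 (adjusted p = 0.0659).

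**Figure D3:**
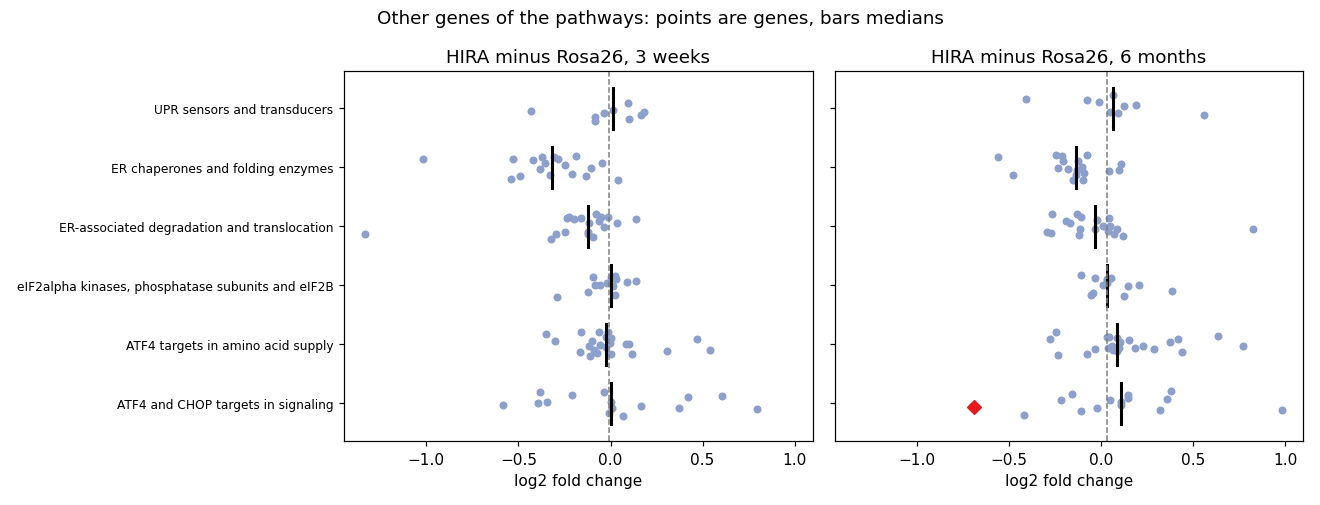
Log2 fold change between HIRA and Rosa26 livers (horizontal axis) of the 97 genes in 6 pathway lists at 3 weeks (left) and 6 months (right). Points are genes, black bars list medians, the dashed line the median of all genes tested, and the red diamond the 1 gene with an adjusted p under 0.05 in edgeR (Bbc3, -0.69). Of the ER chaperones, 17 of 18 lie left of 0 at 3 weeks and 15 of 18 at 6 months.

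Of 19 genes of ER-associated degradation and translocation, 17 were below 0 at 3 weeks (median -0.12) and 11 at 6 months (median -0.03). Derl3, an ER membrane protein of that route, differed most at 3 weeks, by -1.33 ± 0.63 (adjusted p = 0.550), and by 0.82 ± 0.59 at 6 months (adjusted p = 0.543). The 6-month value of Derl3 was 0.37 without the library labelled HIRA 6 months replicate 5, 0.43 without HIRA replicate 1 and 1.53 without Rosa26 replicate 4. Edem1, which hands misfolded glycoproteins to degradation, differed by -0.29 ± 0.08 at 6 months, with an adjusted p of 0.0869 in edgeR, 0.0466 in edgeR with the filterByExpr filter on low counts and 0.00684 in DESeq2. The 9 sensors and transducers, 0 of which passed at either time, had medians of 0.02 and 0.07. Creb3l3, a hepatocyte factor of the ATF6 kind, differed by -0.43 ± 0.18 at 3 weeks (adjusted p = 0.465), and Atf6 by 0.18 ± 0.09 (adjusted p = 0.574). At 6 months the related factors Creb3l1 and Creb3l2 differed in opposite directions, by 0.56 ± 0.24 (adjusted p = 0.253) and -0.41 ± 0.14 (adjusted p = 0.146). The medians of the 13 eIF2alpha kinases, phosphatase subunits and eIF2B genes, of which 0 passed, were 0.00 and 0.03. Ppp1r15a, the phosphatase subunit GADD34 that ends the response, differed by 0.38 ± 0.15 at 6 months (adjusted p = 0.219).

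Among 23 ATF4 targets in amino acid supply, 15 were below 0 at 3 weeks (median -0.03) and 5 at 6 months (median 0.09). Tars, a threonyl-tRNA synthetase, differed by -0.35 ± 0.10 at 3 weeks, with all HIRA livers below all Rosa26 livers (adjusted p = 0.215). Slc38a2, a neutral amino acid transporter, differed by 0.44 ± 0.16 at 6 months, with all HIRA livers above all Rosa26 livers (adjusted p = 0.183), and Mthfd2, a mitochondrial folate enzyme, by 0.77 ± 0.29 (adjusted p = 0.189). Of 15 ATF4 and CHOP targets in signaling, 7 were below 0 at 3 weeks and 6 at 6 months. Vldlr, a lipoprotein receptor induced by ATF4, differed by 0.80 ± 0.31 at 3 weeks (adjusted p = 0.419).

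Leaving out the library labelled HIRA 6 months replicate 5 changed part of these 6-month values. Creb3l1 was then 0.72 (adjusted p = 0.0859), against 0.36 without HIRA replicate 3 (adjusted p = 0.534), Creb3l2 -0.30 (adjusted p = 0.208), Edem1 -0.26 (adjusted p = 0.124), Ppp1r15a 0.29 (adjusted p = 0.337), Slc38a2 0.40 (adjusted p = 0.222) and Mthfd2 0.87 (adjusted p = 0.126). In that fit 2 of the 97 genes passed, Bbc3 and Derl2, a derlin of ER-associated degradation, both lower, and 395 of all genes did. With all libraries Derl2 differed by -0.27 ± 0.10 (edgeR adjusted p = 0.220). Of the 19 degradation and translocation genes 14 were then below 0 (median -0.11), and of the 23 ATF4 targets in amino acid supply 6 (median 0.03).

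Bbc3, which encodes the death-promoting protein PUMA, a target of CHOP and also of p53, was the gene of the 6 lists that passed with all libraries. It had 18.5, 13.8, 15.5, 12.7 and 21.4 CPM in Rosa26 livers and 14.4, 17.1, 15.0, 12.4 and 20.9 CPM in HIRA livers at 3 weeks. At 6 months the Rosa26 livers had 23.0, 22.9, 27.3, 30.9 and 25.0 CPM and the HIRA livers 16.2, 16.6, 15.9, 14.0 and 17.2 CPM. The Rosa26 livers at 6 months were thus above every library of the other 3 groups. Bbc3 fell by 0.69 on the log2 scale with the HIRA guide at 6 months (SE 0.14, edgeR adjusted p = 0.0204), and its value was -0.04 ± 0.14 at 3 weeks. The difference between the times was -0.65 ± 0.20 (adjusted p = 0.614). In Rosa26 livers it rose by 0.66 ± 0.14 with time (adjusted p = 0.0440).

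The 6-month call of Bbc3 held when the library labelled HIRA 6 months replicate 5 was left out (-0.72, adjusted p = 0.0202) and was lost without Rosa26 6 months replicate 4 (-0.62, adjusted p = 0.0725) and in a fit of only the libraries compared (-0.70, adjusted p = 0.0868). The call over time was lost when 1 of 11 libraries was left out, with Bbc3 adjusted p of 0.0517 to 0.136, and also in a fit of only the libraries compared (0.0537), on log2(FPKM + 1) (0.0595) and on log2(FPKM + 0.1) (0.0649). The 11 libraries were replicates 1 to 4 of the Rosa26 livers at 3 weeks, replicates 1, 3, 4 and 5 of those at 6 months, replicates 2 and 3 of the HIRA livers at 3 weeks, and replicate 2 of those at 6 months. The log2 fold change of Bbc3 over time was 0.58 to 0.70 without one of the 11.

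Variation between livers of one group was large for part of the genes. The SD of log2 CPM within groups was 1.25 for Fgf21, the 99.4th percentile of 12902 genes with a mean of at least 1 CPM, 0.79 for Atf3 (97.0th) and 0.49 for Trib3 (87.9th). It was 0.13 for Atf4 (17.0th) and 0.16 for Xbp1 (32.7th), and the median of those genes was 0.20.

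Whether the 10 genes varied together within groups was tested pair by pair. Of 45 pairs, 0 passed a within-group permutation test (100000 resamples, 2-sided, Benjamini-Hochberg adjusted over the 45 pairs) by Pearson's r or by Spearman's rho, over 20 libraries with group means removed. The r values ran from -0.45 (Atf3 with Trib3) to 0.53 (Hspa5 with Dnajb9), with a median of 0.10 and 28 above 0. Without HIRA 6 months replicates 3 and 5, the 2 libraries farthest from the median of Atf3, Atf3 and Trib3 had r = -0.095. Hspa5 and Dnajb9 had r = 0.53 (permutation p = 0.0146, adjusted 0.659) and rho = 0.56 (permutation p = 0.0117, adjusted 0.528), and r = 0.64 without the 2 libraries farthest from the median of Hspa5. Without Rosa26 6 months replicate 4, the library with the most Hspa5, this pair passed at r = 0.68 (permutation adjusted p = 0.0409), while its rho of 0.68 did not pass (permutation adjusted p = 0.0569). Herpud1 and Trib3 had r = 0.45 (permutation p = 0.0572, adjusted 0.729), rho = 0.50 (permutation p = 0.0370, adjusted 0.808) and 0.53 without the 2 farthest libraries. Atf4 and Asns had r = 0.27, and Hspa5 and Herpud1, whose promoters carry the 2 forms of the ER stress element, -0.15.

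The nearest genes of each were taken as a description of which genes varied most alike among 11834 candidates over the 20 libraries. Hspa5 was followed closely by other genes of ER folding: Manf at r = 0.95, Hyou1 at 0.95 and Creld2 at 0.92. All 18 ER chaperones and folding enzymes had r above 0 with Hspa5, with a median of 0.63 against 0.02 for all expressed genes. Xbp1 had a median of 0.61 with the same 18 genes, and Osbpl9 (0.87) and Ppib (0.86) were among its nearest. For Dnajb9 the median was 0.07, and its nearest were Ptpn11 (0.86), Vps37c (0.85) and Alg2 (0.81). For Herpud1 it was 0.02, with Cep85l (0.85), Ulk1 (0.82) and Slc25a32 (0.81) nearest.

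**Figure D4:**
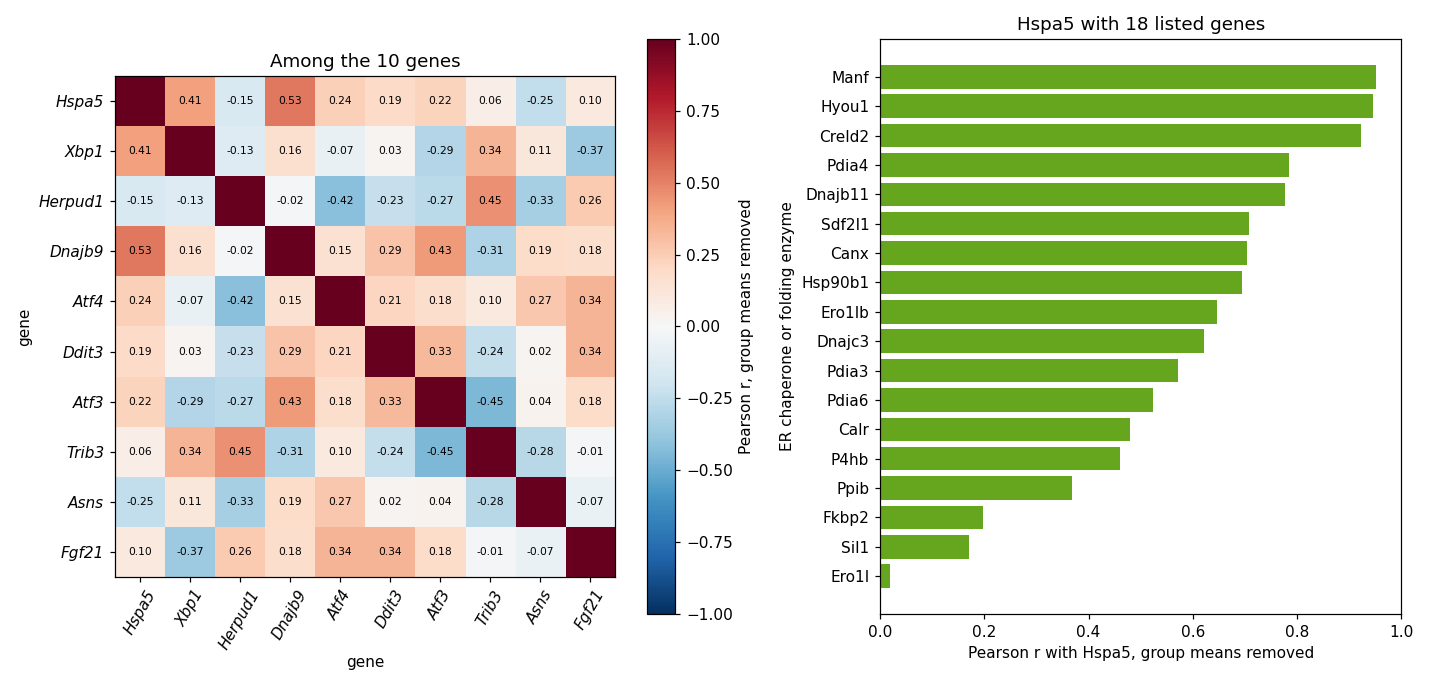
Pearson correlation of log2 CPM with group means removed, over 20 libraries, among the 10 genes (left, colour scale from -1 to 1 with r printed) and of Hspa5 with 18 ER chaperones and folding enzymes (right, bars from 0). Among the 10 genes r runs from -0.45 to 0.53, whereas Hspa5 reached 0.95 with Manf and Hyou1.

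Atf4 had a median r of 0.07 with 19 of its targets in amino acid supply that reached 1 CPM, and its nearest genes were Tdrd7 (0.76), Nuak2 (0.76) and Lzts2 (0.74). The nearest of Ddit3 were Htatip2 (0.79), Fbxl17 (0.75) and Cdv3 (0.75), those of Trib3 Cnppd1 (0.83), Sephs2 (0.82) and Cblc (0.82), and those of Asns included Socs6 (0.80) and Naa30 (0.79). The nearest of Atf3 were Tlr2 (0.91), Ms4a7 (0.88) and Rsad2 (0.88), and its median r was 0.70 with 5 Kupffer cell markers and 0.60 with 5 lymphocyte markers, all 10 above 0. It was 0.53 with 8 immediate early genes and 0.51 with 5 stellate cell markers, also all above 0, 0.63 with 2 neutrophil markers and -0.39 with 6 hepatocyte markers. Xbp1 had a median r of -0.63 with lymphocyte, -0.52 with Kupffer and -0.43 with stellate cell markers, and Trib3 -0.58, -0.44 and -0.55, with r below 0 for all 15 of these markers in both genes. Hspa5 had -0.36, -0.22 and -0.38 in the same order, and -0.46 with 4 endothelial markers, also all below 0. Those Kupffer markers summed to 382 to 547 CPM in Rosa26 livers at 3 weeks and 430 to 691 in HIRA livers, and to 257 to 1811 and 175 to 1129 CPM at 6 months. The part of these cells in the values of Atf3, Xbp1, Trib3 and Hspa5 was not tested.

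Fgf21 was nearest to Acot1 (0.83), a fatty acyl-CoA thioesterase and target of PPARalpha, the fasting sensor of hepatocytes, with Grk4 (0.82) and Hes1 (0.82) next. Its median r with 13 FGF21 receptor genes and PPARalpha targets was 0.58, against -0.01 for all expressed genes, and 0.02 with the 19 ATF4 targets in amino acid supply. The median r of Fgf21 was also 0.50 with 9 cytosolic heat shock genes (8 above 0), 0.42 with 8 immediate early genes (7 above 0) and 0.35 with 6 hepatocyte markers (6 above 0). At 6 months Acot1 had 21.2, 20.3, 10.6, 12.7 and 13.6 CPM in Rosa26 livers and 91.2, 24.6, 25.7, 25.2 and 25.6 CPM in HIRA livers, with all HIRA livers above (log2 fold change 1.30 ± 0.54, adjusted p = 0.245, or 0.68 without HIRA 6 months replicate 1 and 1.41 without the library labelled replicate 5). Acot1 has close paralogs whose reads it may share. Of the 13 genes, 12 were above 0 at 6 months, with a median of 0.22 against 0.03 for all genes, and 0 passed in edgeR, DESeq2 or limma-voom, with 2 at an unadjusted p under 0.05 in edgeR, as had 15.5% of all genes. Without the library labelled HIRA 6 months replicate 5, 10 of 13 were above 0 with a median of 0.17.

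The neighbouring stress programs were measured at both times as well. None of 9 mitochondrial chaperones and proteases passed in edgeR or limma-voom at either time, 1 at 3 weeks and 2 at 6 months had an unadjusted p under 0.05 in edgeR (8.87% and 15.5% of all genes), and DESeq2 passed Clpx at 3 weeks and Hspe1 at 6 months (228 and 895 of all genes). Clpx, a mitochondrial protease subunit, had 320, 295, 316, 292 and 298 CPM in Rosa26 livers and 133, 149, 248, 81.5 and 117 CPM in HIRA livers at 3 weeks, with no overlap. Its log2 fold change of -1.06 ± 0.27 had an adjusted p of 0.118 in edgeR, 0.0321 in edgeR with only the libraries compared and 0.0124 in DESeq2, and without HIRA 3 weeks replicate 3 it was -1.34 (edgeR adjusted p = 0.0260). Without HIRA 3 weeks replicate 4 it was -0.91. Over all single libraries left out, the edgeR adjusted p of Clpx at 3 weeks reached 0.298. At 6 months Clpx differed by -0.31 ± 0.26 (adjusted p = 0.633), by -0.19 when the library labelled HIRA 6 months replicate 5 was left out, by -0.18 without HIRA replicate 4 and by -0.60 without HIRA replicate 1. The 10 cytosolic heat shock genes had medians of -0.03 and 0.02 at the 2 times, and 0 passed in edgeR, with 0 at 3 weeks and 1 at 6 months at an unadjusted p under 0.05, against the same shares of all genes.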

How the data were processed

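RNA from 20 livers was sequenced, 5 per group. According to the study's methods the authors trimmed reads with Trim Galore and aligned them to mm10 with STAR. The deposited counts per gene are raw read counts; the submitters' processing notes name HTSeq for counting, whereas the study's methods name HOMER, and the strand setting is not given in the sources used here. The deposited FPKM values were scaled by the authors for transcript length and sequencing depth, and the notes name Cufflinks. Neither file holds columns of the authors' comparisons.

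Groups were taken from the labels. Counts were fitted with edgeR 4.0.16 (quasi-likelihood test, TMM, R 4.3.3) over all 20 libraries with 1 mean per group, for genes with at least 10 counts in total, and p-values were Benjamini-Hochberg adjusted over 22867 genes. A gene passed at an adjusted p under 0.05. CPM values use TMM library sizes, and log2 CPM a prior count of 2. Totals of 19916430 to 24079736 counts leave wide counting error for Asns, with 2 to 14 counts per library, and little for Hspa5. DESeq2 1.42.0, limma 3.58.1 (voom, or on log2(FPKM + 1) and log2(FPKM + 0.1)), other filters and normalization, a replicate block and leaving out each library served as alternatives. The fits were tested on simulated data. Correlations and promoter searches used Python 3.11.15 with pandas 2.3.3 and numpy 2.4.6, plots used matplotlib 3.10.9, exact permutation tests were computed in R, and coordinates came from GENCODE annotation of GRCm38. Nothing states that replicates share an animal, and the series' design text calls them independent.

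The 10 genes and all lists were chosen with earlier results of these data known. Besides the 10, the text names from each list the genes that passed, at most 4, or, where none passed, the 2 that differed most in size of log2 fold change (mean level of 1 CPM or more), and the 3 genes nearest to each of the 10, of which some are not reported here.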

Additional observations from a re-analysis of the deposited data

Results flagged for a closer look

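In 3 of 40 sets of 5 livers (10 genes in 4 groups), 1 library stood apart from the other 4 by Dixon's ratio of its gap to the range of log2 CPM, with a critical value of 0.71; chance alone gives about 1 in 20. Xbp1 in Rosa26 livers at 3 weeks was highest in replicate 2, with a ratio of 0.791 (279 CPM against 193 to 209 CPM in the others). Dnajb9 in HIRA livers at 3 weeks was highest in replicate 3, with a ratio of 0.757 (72.9 CPM against 55.8 to 59.5 CPM). Atf3 in Rosa26 livers at 3 weeks was highest in replicate 3, with a ratio of 0.7105, barely past the critical value (4.90 CPM against 1.47 to 2.09 CPM).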

How the results depend on the processing

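Of the counts of the 10 genes that passed, 1 changed: DESeq2 passed 1 gene over time in Rosa26 livers (Fgf21), where edgeR passed 0. Of the 45 correlated pairs, 1 passed without Rosa26 6 months replicate 4 (Hspa5 and Dnajb9) and 0 passed otherwise. Of 1465 values of the 10 genes under the alternatives, 1405 kept their direction. The number of all genes called at 3 weeks, at 6 months, over time in Rosa26 livers and over time in HIRA livers was 45, 299, 74 and 15 in edgeR, 228, 895, 511 and 141 in DESeq2, 23, 297, 58 and 7 in limma-voom, 69, 458, 149 and 16 with filterByExpr, 55, 250, 93 and 30 without a filter, 149, 0, 147 and 9 with only the libraries compared, 26, 264, 10 and 7 on log2(FPKM + 1), and 16, 195, 7 and 3 on log2(FPKM + 0.1). It was 103, 395, 213 and 28 when the library labelled HIRA 6 months replicate 5 was left out, and over all single libraries left out it ran from 4 to 103, 49 to 395, 1 to 213 and 5 to 31, so the shares of all genes called depend on single libraries. Counts of 2 to 14 reads limit Asns, and the cause of the changes below was not tested.

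Whether replicate numbers pair the libraries was not settled by the values. Of 30 same-numbered pairs of libraries 14 had a correlation of deviations over 0.1 (range -0.31 to 0.33, median 0.08). In 10 of 30 the same number gave the best match among the 5 libraries of the other group. With the replicate number as a block, 54, 324, 0, 151 and 37 genes were called in the 5 comparisons, 0 of the 10 genes among them, and Ddit3 at 6 months was -0.0146 on the log2 scale.

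Ddit3 at 6 months, 0.00 in edgeR, was also below 0 with RLE size factors (-0.0121), filterByExpr (-0.0063), DESeq2 (-0.0117), limma-voom (-0.0162), only the libraries compared (-0.0033), the mean log2 CPM of the exact permutation test (-0.0221), log2(FPKM + 1) (-0.0582) and log2(FPKM + 0.1) (-0.0678). On log2(FPKM + 1) and log2(FPKM + 0.1), the sign also turned for Atf4 at 3 weeks (0.0168 and 0.0170), Trib3 at 6 months (0.0339 and 0.0461), Asns at 6 months (-0.0628 and -0.288) and Trib3 over time in HIRA livers (0.0224 and 0.0358). Atf3 over time in HIRA livers was -0.0492 in limma-voom and -0.0191 on log2(FPKM + 0.1).

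Leaving out 1 library gave log2 fold changes on both sides of 0, as follows. At 3 weeks these were Atf3 from -0.0692 to 0.517, Atf4 from -0.0580 to 0.0151 and Herpud1 from -0.250 to 0.0457. At 6 months they were Ddit3 from -0.171 to 0.0772, Dnajb9 from -0.242 to 0.0281 and Trib3 from -0.346 to 0.245. For the change of the guide effect with time they were Atf3 from -0.0447 to 0.853, Dnajb9 from -0.0375 to 0.247, Hspa5 from -0.161 to 0.106 and Xbp1 from -0.156 to 0.0125. Over time in Rosa26 livers they were Asns from -0.127 to 0.398, Atf3 from -0.627 to 0.235, Hspa5 from -0.0246 to 0.242 and Xbp1 from -0.0922 to 0.0768. Over time in HIRA livers they were Atf3 from -0.242 to 0.475, Ddit3 from -0.218 to 0.0213, Herpud1 from -0.00244 to 0.299, Hspa5 from -0.0174 to 0.196 and Trib3 from -0.321 to 0.221. The 6-month value of Fgf21 ranged from 1.59 to 2.38.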
